A study of Homo sapiens with 8 samples.

Results

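LIN28A, LIN28B, IGF2BP1, IGF2BP2, IGF2BP3, HMGA1 and HMGA2 are 7 genes that are active in embryos, largely shut down in most adult tissues (IGF2BP2 less so) and often switched on again in tumours. They were taken by gene name from a deposited table of 30386 genes, and all 7 passed the filter on low counts that left 15330 genes for testing. They were chosen by function and by their measured difference between the sample groups, so those differences are described below without a test. Genes outside these 7 that are related to them were tested, but their lists were also chosen with earlier results of these data known.

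The 8 samples held endothelial cells, the cells that line blood vessels, made from the WTC-TJP1 line. That is an established line of human stem cells that were obtained by reprogramming (induced pluripotent). By their labels, 4 samples were endothelial cells (iEC) and 4 were retinal endothelial cells (iREC). Both groups came from that line and were collected at passage 1. Samples of each group are lettered C, D, E and F. The labels name no treatment of either group and give no differentiation protocol. They do not say whether the letters are separate differentiations, so the spread between samples may be partly technical, and all samples share 1 line.

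LIN28A and LIN28B bind the precursors of the let-7 microRNAs at a GGAG element and block their maturation, in part by recruiting the uridylating enzymes TUT4 and TUT7. Mature let-7 in turn represses messages that carry matches to its seed, among them the messages of LIN28, IGF2BP and HMGA genes. The IGF2BP proteins bind coding and 3' untranslated regions of client messages such as IGF2 and MYC and are known to protect them from decay, and they also read N6-methyladenosine. HMGA1 and HMGA2 are small chromatin proteins whose AT-hooks bend AT-rich DNA. Levels of most of them are known to fall as embryonic tissues mature.

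The sequences that connect these genes are shown first. The 9 mature let-7 and miR-98 sequences of the RefSeq table (GRCh38.p14) all carried the same seed, bases 2 to 8, which is in capitals in 3 of them here.
hsa-let-7a-5p: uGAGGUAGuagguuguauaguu
hsa-let-7g-5p: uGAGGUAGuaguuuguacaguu
hsa-miR-98-5p: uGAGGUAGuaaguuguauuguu

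LIN28 acts on the hairpin rather than on the mature strand. Of the 12 let-7 family hairpins in that table, 11 had both arms listed, and 8 of those held GGAG between the arms. The let-7a-1 (chr9:94175957-94176036, plus strand) and let-7g (chr3:52268278-52268361, minus strand) hairpins are shown with GGAG in capitals. The let-7a-3 hairpin (chr22:46112749-46112822, plus strand), like those of let-7b and miR-98, had no such letters there and is shown for contrast.
let-7a-1: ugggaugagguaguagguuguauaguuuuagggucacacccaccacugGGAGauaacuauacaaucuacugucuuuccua
let-7g: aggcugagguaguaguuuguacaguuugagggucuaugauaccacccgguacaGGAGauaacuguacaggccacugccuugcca
let-7a-3: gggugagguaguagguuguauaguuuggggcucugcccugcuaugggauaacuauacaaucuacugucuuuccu

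Every one of the 7 genes held a match to the let-7 seed in its 3' untranslated region. The letters searched were CTACCTC, the complement of the seed, on the message's own strand only, in 1 annotated transcript per gene of GENCODE release 29 (GRCh38). There were 16 matches in all, and 9 of them were followed by A. The first match of each gene, and the other 3 of HMGA2, are given as 22 bases with the match in capitals.
LIN28A, chr1:26427349-26427370: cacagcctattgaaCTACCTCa
LIN28B, chr6:105078813-105078834: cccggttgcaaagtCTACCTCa
IGF2BP1, chr17:49051062-49051083: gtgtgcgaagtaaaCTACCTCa
IGF2BP2, chr3:185644220-185644241, minus strand: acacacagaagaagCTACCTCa
IGF2BP3, chr7:23311795-23311816, minus strand: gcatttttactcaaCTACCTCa
HMGA1, chr6:34245830-34245851: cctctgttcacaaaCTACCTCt
HMGA2, chr12:65963299-65963320: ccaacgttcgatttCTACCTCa
HMGA2, chr12:65964534-65964555: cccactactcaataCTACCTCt
HMGA2, chr12:65964946-65964967: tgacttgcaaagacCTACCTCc
HMGA2, chr12:65965799-65965820: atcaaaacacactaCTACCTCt

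LIN28B, IGF2BP1 and HMGA2 held 4 matches each, and the other 4 genes held 1 each. Over 18927 genes with a scanned 3' untranslated region (median length 872 bases), 8.6% held at least 1 match and 0.919% at least 2. The regions of these genes are longer than that, from 1346 bases in HMGA1 to 6206 in IGF2BP1, so each was also set beside regions within 1.25-fold of its own length. Of those, 14.7% held a match for HMGA2 (2011 regions), and 0.0497% held as many as HMGA2 did. The shares with at least 4 were 0.155% at the length of LIN28B and 0.418% at that of IGF2BP1. For HMGA1 and IGF2BP2, with 1 match each, the shares holding a match were 8.55% and 11.7%. Messages of these families were already known as let-7 targets, so matches were to be found in advance and these shares are description only. A match is a run of letters and says nothing of use by let-7 in these cells. Mature microRNAs were not measured, since the libraries were made from polyadenylated RNA.

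**Figure D1:**
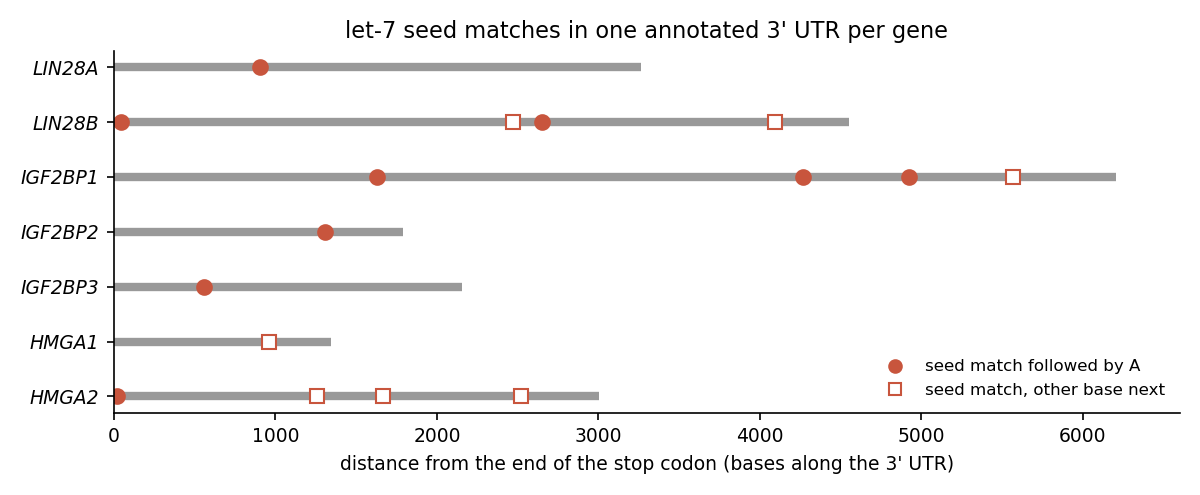
Positions of the let-7 seed match along the 3' untranslated region of each gene. Grey bars run from the end of the stop codon to the end of the region (x axis, bases), filled circles are matches followed by A and open squares are matches followed by another base. LIN28B, IGF2BP1 and HMGA2 carry 4 marks each, and the first marks of LIN28B and HMGA2 lie at the start of the region.

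The libraries were of similar depth. Total counts ran from 13739364 to 16971865, and 3 counts, taken as the floor of detection, equalled 0.178 to 0.215 CPM (counts divided by library size, after TMM scaling, and set to a common total). The summed level of 12 endothelial markers ran from 7552 to 9574 CPM in iEC and from 4575 to 10268 CPM in iREC. The lowest of these, 4575, was iREC F, against at least 7898 in the other iREC samples. The 8 epithelial markers summed to 4934 CPM in iREC F and 302 to 1123 CPM in the other iREC samples, and the 11 mural and mesenchymal markers to 5725 CPM against 1300 to 2061 there and 104 to 451 in iEC. All 12 endothelial markers were present in both groups, but they differed between them: PECAM1, CDH5, EGFL7, ESAM and ROBO4 fell in iREC and TEK, CLDN5 and EMCN rose, EMCN from 4.21 to 432 CPM (adjusted p 4.11e-05 by edgeR). These 8 called markers are 66.7% of the list, against 25.0% of all tested genes. Markers of the retinal type were not examined. The iREC F sample stood apart from its group. In bulk RNA, fewer cells of a type and less RNA per cell cannot be told apart.

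Of all tested genes, 25.0% were called different between iREC and iEC, 13.2% higher and 11.7% lower in iREC. Among the 7 genes, 3 were called higher (LIN28A, IGF2BP2 and IGF2BP3) and 1 lower (HMGA1). Nothing is read from these counts, because the genes were chosen with them known. The groups of samples did not overlap in 29.1% of all tested genes, and in IGF2BP3 and HMGA1 among the 7. The median log2 fold change, iREC over iEC, was 0.32 over the 7 genes and 0.020 over all tested genes.

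**Figure D2:**
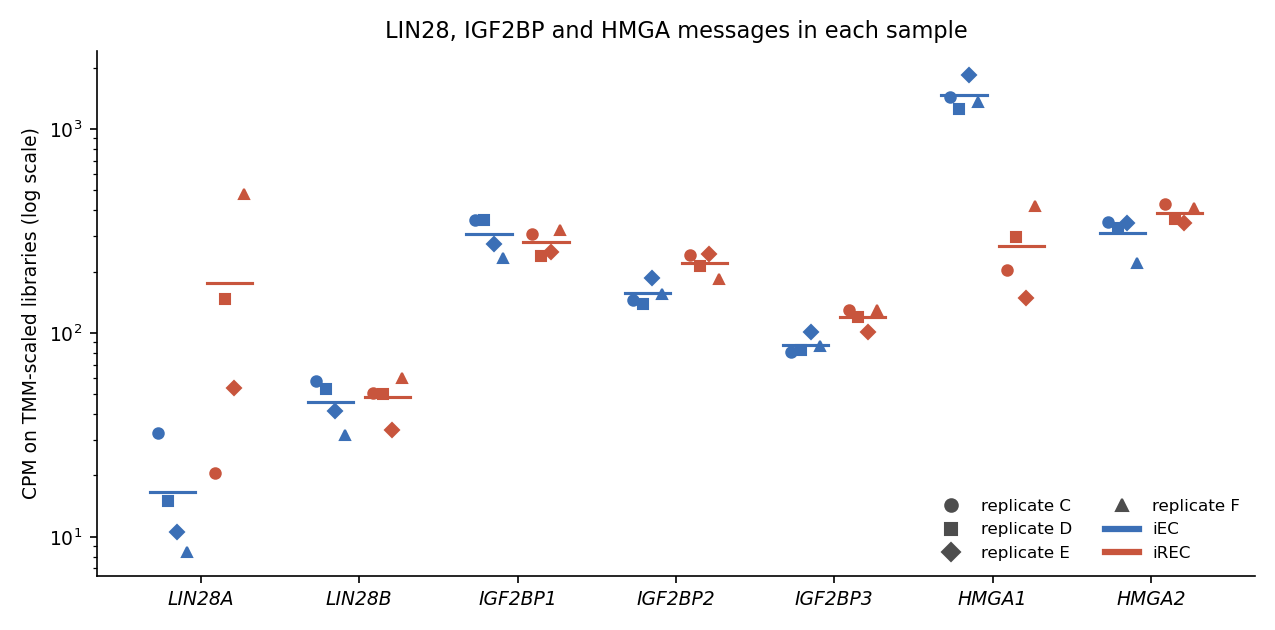
Level of each gene in each of the 8 samples (CPM on TMM-scaled libraries, log axis). Symbols mark the replicate letter, blue is iEC, red is iREC and horizontal lines are group means of 4 samples. HMGA1 is clear of the other group in every sample, LIN28A spreads over the widest range in iREC, and the other genes lie close together in both groups.

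LIN28A had the widest spread of the 7 genes. LIN28A (ENSG00000131914, chromosome 1, 26410778 to 26429722) measured 32.4, 15.0, 10.5 and 8.45 CPM in iEC C to F. In iREC C to F it measured 20.5, 147, 53.7 and 482 CPM. The groups overlapped, because iREC C lay below iEC C, while the other 3 iREC samples lay above every iEC sample. The means were 16.6 ± 10.9 CPM in iEC and 176 ± 211 CPM in iREC (SD, n = 4), which gave a fitted log2 fold change of 3.40 ± 0.91 (SE).

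The highest iREC sample had 23.4 times the lowest, against 3.83 times within iEC. Without iREC F the LIN28A log2 fold change was 2.15. The deposited FPKM are fragments per kilobase of the length listed for each gene, scaled to library size. That length can differ from the length of the message present in these cells. By FPKM, LIN28A ranked between percentiles 39.0 and 65.9 of the tested genes in iEC samples and between percentiles 54.9 and 98.2 in iREC samples. The highest of these ranks was that of iREC F.

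The order of LIN28A over the iREC samples, C, E, D and then F, was also that of the summed epithelial markers. KRT8, a keratin of simple epithelia, had 98.6, 195, 602 and 3025 CPM in those samples in that order. CDH1, the cadherin of epithelial junctions, was at 0, 1.16, 5.14 and 81.6 CPM, and at no more than 0.0650 CPM in iEC. KRT7, KRT19 and CLDN6 also had that order. KRT18 (194, 184, 387 and 1538 CPM in iREC C, E, D and F), EPCAM and ESRP1 did not. The order did not carry over to iEC, where LIN28A was highest in C and lowest in F while the epithelial sum was highest in F (1177 CPM) and lowest in D (392 CPM). Of the 8 epithelial markers, 6 were tested and KRT7 alone was called, higher in iREC (16.7%, against 25.0% of all tested genes). ESRP1 had 0 counts in all iEC samples. In iREC, PDGFRB, COL1A1, COL3A1, LUM, DCN and POSTN, of the mural and mesenchymal markers, also had the order of LIN28A. The other markers of that list did not. How many of all tested genes had this order was not counted, so a shared order is description only, here and below. The part of epithelial or mesenchymal cells in the LIN28A level was not tested.

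Markers of undifferentiated stem cells differed among themselves. Their sum, most of it DPPA4, did not follow LIN28A and was 31.6 to 59.9 CPM in iEC and 28.3 to 36.5 CPM in iREC, with iREC D and F, the samples high in LIN28A, at 36.5 and 35.0 CPM. ZFP42, of the same list, was at 0.981, 10.6, 4.21 and 11.7 CPM in iREC C to F, the order of LIN28A. NANOG, DPPA2 and TDGF1 had at most 3 counts in every sample. POU5F1, the core pluripotency factor, lay between 0.131 and 1.16 CPM in iREC, and its highest sample was E. L1TD1, an RNA-binding partner of LIN28A in embryonic stem cells, was at 0.131, 0.714, 0.427 and 2.55 CPM in iREC C to F and was too low to be tested. That is the order of LIN28A, at no more than 39 counts in a sample.

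**Figure D3:**
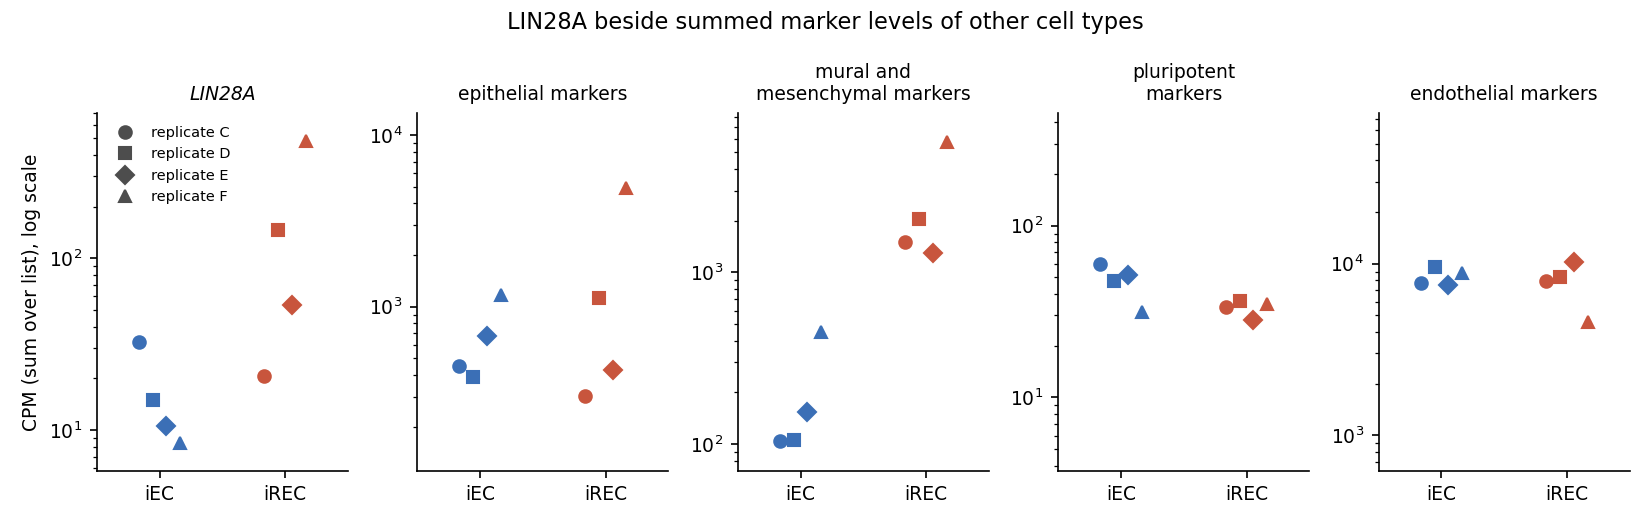
LIN28A and the summed levels of 4 marker lists in each sample (CPM, log axes whose limits differ between panels). Symbols mark the replicate letter, blue is iEC and red is iREC. In iREC the epithelial panel repeats the order of the LIN28A panel, with iREC F highest at 4934 CPM, while the pluripotent panel stays within 28.3 to 59.9 CPM over all 8 samples.

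LIN28B, the paralog of LIN28A, differed between the groups by less than the spread within them. LIN28B (ENSG00000187772, chromosome 6, 104936616 to 105083332) measured 58.1, 53.2, 41.5 and 31.4 CPM in iEC C to F and 50.6, 50.2, 33.4 and 60.0 CPM in iREC C to F. The groups overlapped over nearly their whole range. The means were 46.0 ± 12.0 and 48.6 ± 11.1 CPM (SD, n = 4), with a log2 fold change of 0.077 ± 0.23 (SE). Its sign turned when iEC F (-0.071) or iREC F (-0.042) was left out, so no direction is given.

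Per listed gene length, the balance within the LIN28 pair differed between samples. LIN28A was 0.380 to 0.835 times LIN28B in iEC (median 0.412) on the FPKM scale, so LIN28B was the more abundant in all 4 iEC samples. In iREC the ratio ran from 0.608 to 12.0 (median 3.39), and only in iREC C was LIN28B still the more abundant. LIN28A made up 27.5% to 45.5% of the pair's FPKM in iEC and 37.8% to 92.3% in iREC. The sum of the pair was 7.53 to 17.4 FPKM in iEC and 13.3 to 129 FPKM in iREC.

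All 3 IGF2BP messages were present in every sample, and their differences between groups were small. IGF2BP1 (ENSG00000159217, chromosome 17, 48997412 to 49055650), also called ZBP1 or IMP1, measured 359, 360, 272 and 233 CPM in iEC C to F. It measured 304, 239, 249 and 320 CPM in iREC C to F. The groups overlapped, with all 4 iREC samples inside the iEC range. The means were 306 ± 63.9 and 278 ± 40.3 CPM (SD, n = 4), and the fitted log2 fold change was -0.14 ± 0.17 (SE).

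IGF2BP2 (ENSG00000073792, chromosome 3, 185643739 to 185825056) is the family member that is also made in many adult tissues. It measured 145, 139, 186 and 155 CPM in iEC C to F and 242, 212, 245 and 184 CPM in iREC C to F. The groups met at a single pair of samples, since iREC F, the lowest iREC sample, lay just under iEC E, the highest iEC sample. The means were 156 ± 20.9 and 221 ± 28.8 CPM (SD, n = 4), and the fitted log2 fold change was 0.50 ± 0.14 (SE).

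IGF2BP3 (ENSG00000136231, chromosome 7, 23310209 to 23470467) is the family member most used as an oncofetal tumour marker. It measured 81.1, 82.7, 101 and 86.3 CPM in iEC C to F and 129, 120, 101 and 130 CPM in iREC C to F. The groups did not overlap, but the gap was narrow: the level in iREC E was 1.006 times that in iEC E. The means were 87.7 ± 8.98 and 120 ± 13.4 CPM (SD, n = 4), and the fitted log2 fold change was 0.46 ± 0.12 (SE). The MALSU1 gene overlaps IGF2BP3 on the other strand. It had 21.4 CPM in iEC and 21.6 CPM in iREC. Whether the counting used strand is not given in the sources used here.

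As a family, the IGF2BP messages summed to 70.3 to 80.0 FPKM in iEC and 83.3 to 98.1 FPKM in iREC. Within that sum, IGF2BP1 took 36.9% to 50.3% in iEC and 30.1% to 39.4% in iREC. The share of IGF2BP2 was 37.3% to 48.5% in iEC and 43.5% to 56.8% in iREC. IGF2BP3 took the smallest share in all samples, 12.0% to 14.8% in iEC and 13.1% to 17.2% in iREC. The shares of each paralog thus overlapped between the groups. The size of each share depends on the listed gene lengths, 9109, 4735 and 8511 bases for IGF2BP1, IGF2BP2 and IGF2BP3.

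Per listed gene length (FPKM), HMGA1 had the highest mean of the 7 in both groups, and it was the one most clearly lower in iREC. By CPM, HMGA2 (387) and IGF2BP1 (278) had higher means in iREC than HMGA1 (268). HMGA1 (ENSG00000137309, chromosome 6, 34236873 to 34246231) measured 1435, 1258, 1851 and 1359 CPM in iEC C to F. It measured 204, 296, 148 and 422 CPM in iREC C to F. The groups were far apart, with the lowest iEC sample at 2.98 times the highest iREC sample. The means were 1476 ± 260 and 268 ± 120 CPM (SD, n = 4), and the fitted log2 fold change was -2.46 ± 0.31 (SE), or 5.51-fold higher in iEC.

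Of all tested genes, 6.58% had a fitted difference of that size or larger in either direction. In iEC the HMGA1 message ranked between the 99.7th and 99.8th percentile of tested genes by FPKM, and in iREC between the 96.7th and 99.0th. It was thus still an abundant message in iREC. The HMGA1 level followed the order E, C, D, F in iREC, and its log2 fold change without iREC F was -2.77. The summed mural and mesenchymal markers had the same order there (1300, 1498, 2061 and 5725 CPM), while between the groups they stood the other way, higher in iREC. Of the single markers in that sum, only ACTA2 and PDGFRA had the order of HMGA1 in iREC. PDGFRB, COL1A1, COL3A1, LUM, DCN and POSTN had the order of LIN28A there, C, E, D, F. TAGLN, CNN1 and COL1A2 ran E, D, C, F. The part of these markers in the HMGA1 level was not tested. HMGA1 has processed copies elsewhere in the genome. The 4 of them in the table had at most 9 counts in any sample, so few reads were assigned to the copies.

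HMGA2, the paralog most often named as a let-7 target, was higher in mean in iREC by a small margin. HMGA2 (ENSG00000149948, chromosome 12, 65824131 to 65966295) measured 349, 328, 345 and 221 CPM in iEC C to F and 431, 362, 346 and 410 CPM in iREC C to F. The groups overlapped by the narrowest margin, with iREC E at 0.991 times iEC C. The iEC F sample stood well below the other 3 of its group. The means were 311 ± 60.7 and 387 ± 40.0 CPM (SD, n = 4), and the fitted log2 fold change was 0.32 ± 0.16 (SE), and 0.18 without iEC F. AC090673.1, an antisense gene within HMGA2, rose from 0.795 to 2.68 CPM (adjusted p 0.0373 by edgeR, log2 fold change 1.73). Reads of this gene and of HMGA2 may not have been told apart, since the strand setting of the counting is not known.

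The ratio within the HMGA pair did not overlap between the groups. HMGA1 exceeded HMGA2 25.4 to 40.7 times in iEC and 2.83 to 6.81 times in iREC, on the FPKM scale. The size of these ratios depends on the listed gene lengths, 2327 bases for HMGA1 and 15403 for HMGA2. By CPM, which takes no account of length, the iREC mean of HMGA1 (268) was below that of HMGA2 (387). The listed lengths are the same in both groups. The sum of the pair was 551 to 807 FPKM in iEC and 84.1 to 207 FPKM in iREC, and these ranges did not overlap.

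Ranked by FPKM in iEC, the order was HMGA1 (629 ± 109), IGF2BP1 (33.3 ± 6.37), IGF2BP2 (32.8 ± 4.51), HMGA2 (20.0 ± 3.56), IGF2BP3 (10.2 ± 1.08), LIN28B (7.59 ± 1.85) and LIN28A (4.08 ± 2.62; all SD, n = 4). Neighbours in this order whose samples overlapped were IGF2BP1 and IGF2BP2, IGF2BP3 and LIN28B, and LIN28B and LIN28A. In iREC the order was HMGA1 (113 ± 51.4), IGF2BP2 (45.8 ± 5.75), LIN28A (43.3 ± 52.3), IGF2BP1 (30.0 ± 4.55), HMGA2 (24.7 ± 2.67), IGF2BP3 (13.9 ± 1.62) and LIN28B (7.96 ± 1.86; all SD, n = 4). LIN28A, from 5.04 to 119 FPKM there, overlapped every other one of the 7, so its place in the iREC order is not set. Among the other 6, IGF2BP1 and HMGA2 were the only neighbours in iREC whose samples overlapped. Both orders depend on the listed gene lengths, from 2327 bases (HMGA1) to 15403 bases (HMGA2).

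**Figure D4:**
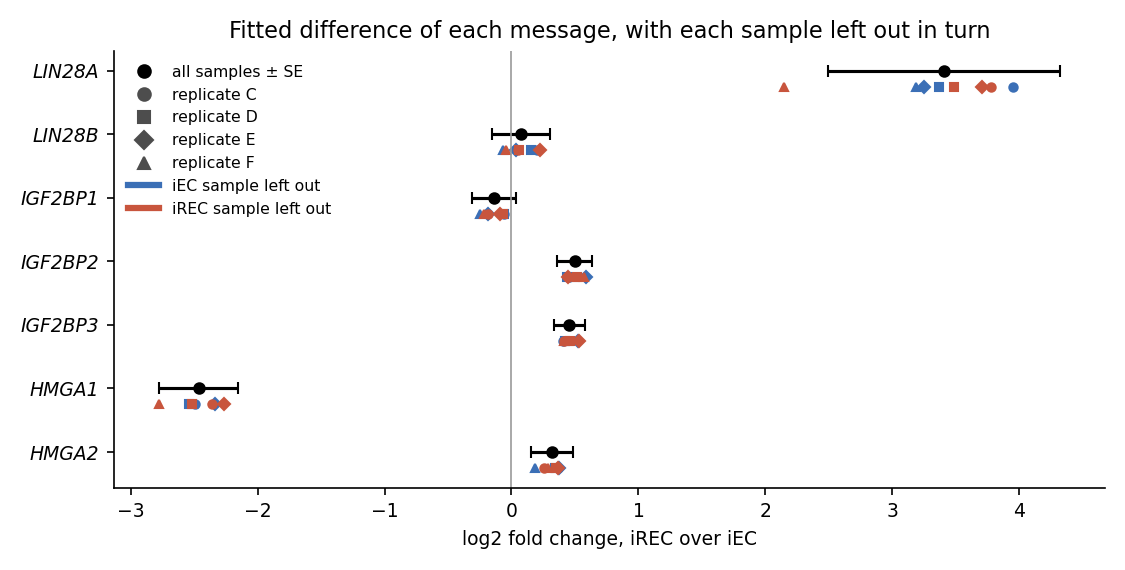
Fitted log2 fold change of each gene, iREC over iEC (x axis). Black circles with bars are the fit to all 8 samples ± SE, and coloured symbols are fits with 1 sample left out, blue for an iEC and red for an iREC sample. HMGA1 stays between -2.77 and -2.26, LIN28A between 2.15 and 3.95, and LIN28B falls on both sides of 0.

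Within groups, some pairs of the 7 genes varied together more closely than others. On log2 CPM centred on each group's mean (8 samples), IGF2BP1 and LIN28B had a Pearson correlation of 0.84. HMGA2 was at 0.79 with IGF2BP1 and at 0.78 with LIN28B. Over 12823 protein-coding genes, the 99th percentile of this measure was 0.936 for LIN28B, 0.923 for IGF2BP1 and 0.905 for HMGA2. These pairs lay below those values, so many genes outside the 7 were closer to LIN28B, IGF2BP1 and HMGA2. HMGA1 went with IGF2BP3 (0.73) and with LIN28A (0.69), also below the 99th percentile for HMGA1 (0.894). LIN28A and IGF2BP3 were at 0.025. LIN28A and LIN28B were at 0.57 and HMGA1 and LIN28B at 0.52, so the pairs do not form separate sets. IGF2BP2 ran the other way from LIN28A (-0.77), LIN28B (-0.61) and IGF2BP1 (-0.50). The low iEC F sample is shared by LIN28B, IGF2BP1 and HMGA2, which all had their lowest iEC value there, as did LIN28A. These values share the 8 libraries, and a few samples can set them.

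The genes most like each of the 7 within groups were found by the same measure among 12823 protein-coding genes. For LIN28A they were SORL1 (0.988), TRIM6 (0.978) and KIF21B (0.976), where the 99th percentile over all these genes was 0.889. In iREC C to F the SORL1 message, a sorting receptor, had 5.10, 12.1, 7.82 and 23.1 CPM, the order of LIN28A. SORL1 and TRIM6, a ubiquitin ligase, were lower in mean in iREC (12.0 against 14.2 and 8.44 against 15.4 CPM), and neither SORL1 (adjusted p 0.716 by edgeR) nor TRIM6 (0.207) was called. These means stood the other way from that of LIN28A.

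For LIN28B the nearest were KCTD9 (0.991), CHST3 (0.989) and the histone gene H2AFZ (0.989). For IGF2BP1 they were KIAA1549 (0.989), RBM14 (0.988) and the splicing factor PRPF19 (0.985). KIAA1549 fell in iREC from 47.3 ± 6.42 to 21.4 ± 2.05 CPM (adjusted p 0.000493 by edgeR, log2 fold change -1.14 ± 0.14, SE), whereas the log2 fold change of IGF2BP1 was -0.14. Among the nearest to IGF2BP2 were CDK10 (0.977) and SLC17A9 (0.976), and SLC17A9, a nucleotide transporter of vesicles, fell from 76.9 ± 26.9 to 25.3 ± 9.32 CPM (adjusted p 0.00710 by edgeR).

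For IGF2BP3 they were STRIP2 (0.970), RNF6 (0.966) and FKBP14 (0.947), a prolyl isomerase of the endoplasmic reticulum that fell from 61.9 ± 9.20 to 39.7 ± 5.16 CPM (adjusted p 0.0119 by edgeR). HMGA1 was nearest to ST7 (0.987), ZDHHC2 (0.980) and CNIH1 (0.980), none of which was called. HMGA2 was nearest to ABHD16A (0.993), GOLGA6L9 (0.978) and NUP205 (0.976). ABHD16A was low, at 1.62 ± 0.463 CPM in iEC, and shares with HMGA2 a low value in iEC F.

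Related genes were then counted by role. Because these lists were chosen with earlier results of these data known, their shares of called genes are description only. In the list of let-7 processing enzymes and LIN28 cofactors, 18 of 20 genes were tested, 2 rose, 1 fell and 15 were not called, with a median log2 fold change of 0.18. That is 16.7% called, against 25.0% of all tested genes. DICER1, which cuts precursor microRNAs, had 164, 185, 158 and 114 CPM in iEC C to F and 357, 436, 518 and 318 CPM in iREC C to F. DICER1 rose in iREC with no overlap (adjusted p 0.00107 by edgeR, log2 fold change 1.39 ± 0.20, SE). TNRC6C, a scaffold of the silencing complex, rose from 7.94 ± 2.39 to 15.0 ± 2.73 CPM (adjusted p 0.0247 by edgeR), a call lost without iEC C, iEC E, iREC D or iREC E (adjusted p up to 0.0702).

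Of the uridylating enzymes recruited by LIN28, TUT7 was called and TUT4 was not, and the difference between them was not tested. TUT7 fell from 59.6 ± 10.4 to 30.9 ± 3.44 CPM (SD, n = 4; adjusted p 0.00243 by edgeR, log2 fold change -0.95 ± 0.16, SE), and every iREC sample lay below every iEC sample. TUT4 was at 30.6 ± 8.72 CPM in iEC and 42.1 ± 4.95 CPM in iREC; the test did not call it (adjusted p 0.142 by edgeR). DIS3L2, the nuclease that degrades uridylated pre-let-7, was at 22.7 ± 3.71 and 28.3 ± 8.03 CPM and was not called (adjusted p 0.299 by edgeR). The DIS3L2 value of iREC F, 40.3 CPM, lay apart from the 23.6 to 25.0 CPM of the other iREC samples.

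Host transcripts give only an indirect view of let-7. Of 19 host and hairpin genes, 9 were in the table and 3 were tested, none of them (0) called by edgeR, also at an unadjusted p under 0.05 (0), with a median of -0.18. DESeq2, and edgeR without a filter, called 1, MIR99AHG. MIRLET7BHG, the host of let-7a-3 and let-7b, had at most 1 count in any iEC sample and at most 0.0714 CPM in iREC. MIR99AHG, the host of let-7c, was at 0.114 ± 0.107 CPM in iEC and 0.863 ± 0.410 CPM in iREC (SD, n = 4), below the filter on low counts. MIR100HG, the host of let-7a-2, was at 6.26 ± 2.96 and 17.5 ± 15.9 CPM and was not called (adjusted p 0.144 by edgeR). Its iREC samples ran from 4.38 to 38.3 CPM, with iREC D and F high.

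Among 24 messages known as let-7 targets outside the 7, 9 rose, 2 fell and 13 were not called, 45.8% called against 25.0% of all tested genes, with a median of 0.09. The risers were NR6A1, MYCN, CDK6, IGF1R, INSR, IRS2, TGFBR1, THBS1 and DICER1, and the fallers were CCND1 and PRDM1. The CDK6 call was lost without any 1 of the iEC samples, iREC D or iREC E (adjusted p up to 0.0877), and that of NR6A1 without iEC E, iEC F or iREC C (up to 0.0649). MYCN, the neural MYC paralog, rose from 1.25 ± 1.16 to 51.1 ± 14.9 CPM (adjusted p 0.000167 by edgeR, log2 fold change 5.35 ± 0.53, SE). IRS2, an adaptor of the insulin and IGF receptors, rose from 8.0 ± 3.61 to 130 ± 26.5 CPM (adjusted p 0.000128 by edgeR, log2 fold change 4.02 ± 0.38, SE). Called members of this list went in both directions.

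The iREC samples of IRS2 ran from 99.9 to 164 CPM against 2.93 to 11.2 CPM in iEC. TGFBR1, a receptor for TGF-beta, rose from 22.3 ± 3.58 to 123 ± 116 CPM (adjusted p 0.0108 by edgeR), with 293 CPM in iREC F, where the rest of the group had 44.9 to 95.2 CPM. Without iREC F its log2 fold change was 1.57 in place of 2.47. PRDM1, a transcriptional repressor, fell from 31.1 ± 6.56 to 4.60 ± 1.78 CPM (adjusted p 0.000316 by edgeR, log2 fold change -2.75 ± 0.31, SE). MYC itself was at 83.9 ± 23.7 and 57.6 ± 6.72 CPM and was not called (adjusted p 0.0753 by edgeR). Of the 23 messages of this list with a scanned 3' untranslated region, 14 held the seed match used above and 9 did not. Of the 11 called messages 4 held it, and CCND1, PRDM1, MYCN, DICER1, CDK6, INSR and THBS1 did not; of the 12 scanned and not called, 10 held it.

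Among messages known to be bound by IGF2BP proteins, 11 of 13 were tested, 4 rose, 1 fell and 6 were not called (45.5% called, against 25.0% of all tested genes), with a median of -0.085. The risers were IGF2, H19, SRF and ABCB1, and CD44 fell. IGF2, the fetal growth factor that gave the family its name, had at most 8 counts in any iEC sample and 75.7, 275, 379 and 213 CPM in iREC C to F (adjusted p 3.78e-05 by edgeR). H19, its imprinted neighbour and a non-coding RNA, rose from 6.89 ± 5.95 to 777 ± 305 CPM (adjusted p 0.000244 by edgeR). CD44, a hyaluronan receptor, fell from 300.2 ± 107 to 51.3 ± 15.3 CPM (adjusted p 0.000458 by edgeR, log2 fold change -2.55 ± 0.31, SE). The ABCB1 call, at 2.04 CPM in iREC, was lost in every fit that left out a sample other than iREC C (adjusted p up to 0.149 over all alternatives).

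None (0) of the 10 tested protein partners of IGF2BP particles and none (0) of the 17 enzymes and other readers of N6-methyladenosine was called by edgeR, against 25.0% of all tested genes, with medians of -0.13 and -0.082. DESeq2 and limma-voom called 0 in both lists, and at an unadjusted edgeR p under 0.05 there were 2 and 3. Without iREC F the edgeR counts were 1 (ELAVL1) and 3 (RBM15B, YTHDF2 and YTHDC2). Their summed levels were 3314 to 3939 CPM in iEC and 2814 to 3653 CPM in iREC for the partners, and 2241 to 2986 and 2330 to 2771 CPM for the methylation genes.

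Of the 10 other high mobility group genes, HMGN3 alone rose, from 39.2 ± 7.66 to 58.7 ± 3.11 CPM (adjusted p 0.0199 by edgeR, 0.0581 without iREC D), and 9 were not called (10% called, against 25.0% of all tested genes; median -0.011). HMGN4, named after its values were seen, was at 50.8 ± 10.0 CPM in iEC and 22.1 ± 13.9 CPM in iREC; it just missed the threshold (adjusted p 0.0506 by edgeR). Its iREC samples C, D, E and F had 15.0, 22.1, 9.83 and 41.5 CPM, the order of HMGA1. Among 12 genes linked to HMGA proteins, 11 were tested, 3 rose (PLAGL1, SNAI2 and ID2) and 2 fell (45.5% called, against 25.0% of all tested genes; median 0.31). PLAGL1, an imprinted zinc finger gene, rose from 55.4 ± 27.1 to 305 ± 170 CPM (adjusted p 0.00439 by edgeR), and SNAI2, a repressor in mesenchymal transition, from 4.06 ± 2.79 to 27.5 ± 12.5 CPM (adjusted p 0.00426 by edgeR). In iREC the mural and mesenchymal marker sums given above were also higher, and their part in the SNAI2 result was not tested. The ID2 call was lost without any 1 of the iEC samples, iREC D or iREC F (adjusted p up to 0.139).

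CDKN2A and CDKN2B, cell cycle inhibitors of the locus that HMGA2 is known to hold down in stem cells, both fell. CDKN2A had 9.88, 6.51, 21.2 and 65.7 CPM in iEC C to F and at most 0.262 CPM in iREC (adjusted p 0.000638 by edgeR). CDKN2B had 17.1, 20.1, 25.7 and 32.5 CPM in iEC C to F and at most 1.05 CPM in iREC (adjusted p 0.000267 by edgeR). In iEC, the sample with the lowest HMGA2 level, F, was the one with the highest CDKN2A and CDKN2B levels, which are values of 4 samples and carry no test. The other iEC samples did not follow this: D, the next lowest in HMGA2 (328 CPM), had the lowest CDKN2A level. LIN28A, LIN28B and IGF2BP1 were also lowest in iEC F. That sample differed from its group in marker sums too. Its mural and mesenchymal sum was 451 CPM against 104 to 155 in the other iEC samples, and its epithelial sum 1177 against 392 to 675 CPM. The part of this in the HMGA2, CDKN2A and CDKN2B levels was not tested. No iREC sample came near an iEC sample in either gene.

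The pluripotency list holds genes that are known to be active together with LIN28A in stem cells. Of its 14 genes, 12 were in the table, 4 were tested and 2 were called (50%, against 25.0% of all tested genes). SALL4 (adjusted p 0.207 by edgeR) and DNMT3B (0.0650) were not called. ZFP42 rose, from 0.845 ± 0.291 to 6.85 ± 5.11 CPM (adjusted p 0.0129 by edgeR), with 0.981 CPM in iREC C and 11.7 CPM in iREC F. DPPA4 fell, from 46.4 ± 11.7 to 25.6 ± 4.72 CPM (adjusted p 0.0166 by edgeR). The groups overlapped in both genes. The DPPA4 call was lost without iREC D or iREC E (adjusted p up to 0.0518), and that of ZFP42 by limma-voom and with the replicate letter as a block (up to 0.0936 over the alternatives). ZFP42 followed the order C, E, D, F of LIN28A over the iREC samples, and DPPA4 did not.

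**Figure D5:**
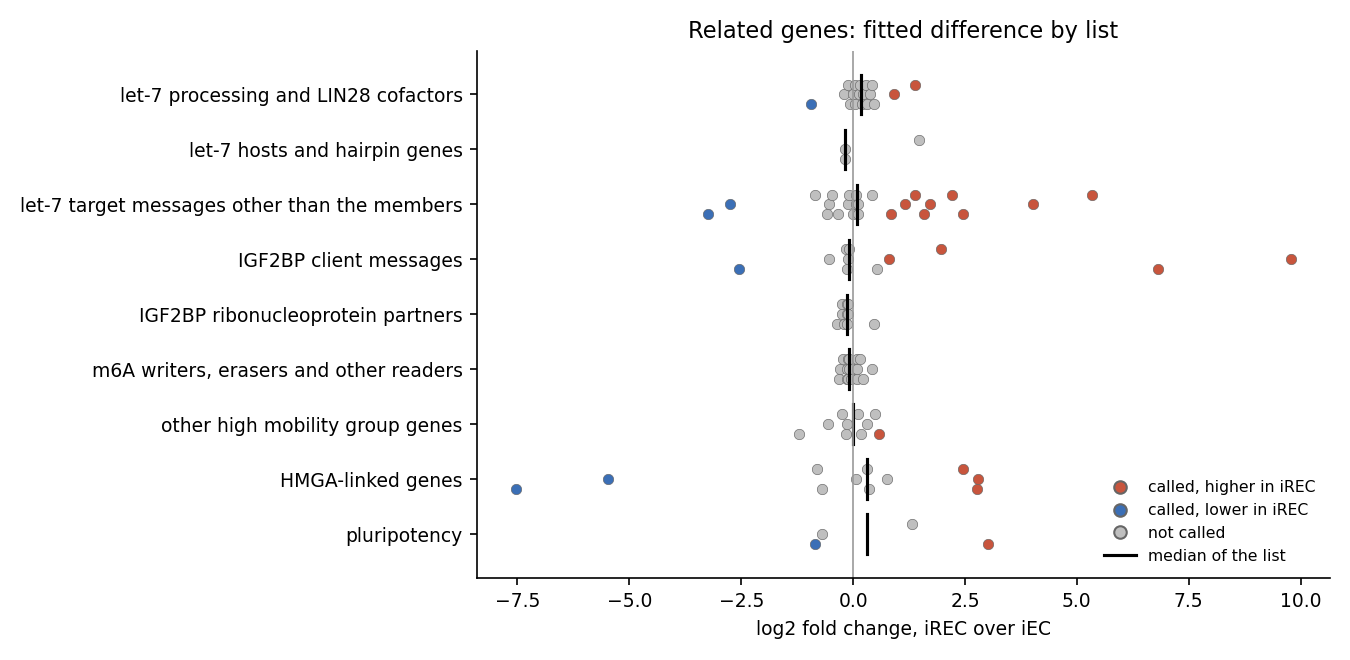
Fitted log2 fold change, iREC over iEC, of every tested gene in the 9 related lists (x axis, 1 row per list, points spread vertically for legibility). Red and blue points are genes called higher and lower in iREC by edgeR, grey points were not called and black ticks are list medians. The IGF2BP client list reaches furthest to the right (IGF2) and the HMGA-linked list furthest to the left (CDKN2A), while the partner and N6-methyladenosine lists hold no called gene.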

How the data were processed

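Messenger RNA of 8 samples (4 iEC, 4 iREC) was selected with poly-T beads, per the labels' protocols. The submitters' processing notes name fastp, HISAT2 2.0.5 and hg38; the counting program and its strand setting are not given in the sources used here. The authors deposited raw counts, which were used for every test, together with a normalized signal and FPKM per gene, per the file headers. Their log2 fold changes and p-values, also deposited by the authors, were not used. All 30386 gene identifiers with their starts and ends match GENCODE release 29.

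Counts were filtered with filterByExpr, scaled by TMM and tested with the quasi-likelihood test of edgeR 4.0.16 (R 4.3.3) on group alone, with Benjamini-Hochberg adjustment over 15330 genes and a threshold of 0.05. CPM are on TMM-scaled libraries, log2 CPM used a prior count of 2, and FPKM were taken as deposited. Total counts were 13739364 to 16971865, and floors cover counting error only. MATR3 and RGS5 had more than 1 row and were left out. The fitting script was tested on simulated data.

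The 7 genes, the 9 related lists and the 7 marker lists were chosen with earlier results of these data known. The text names the 7 genes, up to 3 called genes with at least 1 CPM per list and direction, 14 genes whatever their values, and the 3 genes nearest to each of the 7; of these and of the lists, 2 genes are not reported here and enter no list count. The marker genes KRT7, KRT8, KRT18, CDH1 and ESRP1, the genes that overlap the 7, and HMGN4 lie outside that rule. So do list genes given only by name or called only under an alternative. Alternatives were DESeq2 size factors, library totals, no filter, DESeq2 1.42.0, limma-voom (limma 3.58.1), the replicate letter as a block, and each sample left out.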

Additional observations from a re-analysis of the deposited data

Results flagged for a closer look

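Within groups of 4 samples, a sample was singled out where the distance to its neighbour, as a share of the range of the group, passed the critical value of Dixon at 95%. This held for 11 of 116 groups of values examined, and chance alone gives about 6 (1 in 20).

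HMGA2 was low in iEC F, at 221 CPM against 328 to 349 CPM, a gap of 0.865 of the range. MYCN was high in iEC C, at 2.99 CPM against 0.632 to 0.716 CPM (0.926). PLAGL1 was high in iEC D, at 96.0 CPM against 40.5 to 43.4 CPM (0.918). DIS3L2 was high in iREC F, at 40.3 CPM against 23.6 to 25.0 CPM (0.895).

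Among the genes most like the 7 within groups, SORL1 was high in iEC C (19.1 CPM against at least 12.2 CPM, 0.865). STRIP2 was high in iEC E (12.9 against 5.20 to 5.58 CPM, 0.923), and ABHD16A was low in iEC F (0.930 against 1.77 to 1.89 CPM, 0.902). The last 4 groups hold a single sample above 0, so the gap is the whole range (1): MIRLET7BHG in iEC F (0.0716 CPM) and in iREC D (0.0714 CPM), and L1TD1 and SOX2 in iEC E (0.237 CPM each). These are a few counts each.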

How the results depend on the processing

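The 3829 calls over all genes became 2660 to 4954 under the alternatives; leaving out iREC D gave 1171 lower genes, of a range of 1171 to 1991 over the samples left out. Of the 7 genes, 1 was called lower in every fit. The 3 called higher became 1 with no filter, 1 with the replicate block and 0 to 3 with a sample left out (0 without iEC D, and 1 without iEC C, iEC F, iREC C or iREC D).

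The LIN28A log2 fold change was 2.70 by limma-voom and 2.75 with the replicate block, no longer called, and 2.15 (without iREC F) to 3.95 (without iEC C) with a sample left out, where the call was lost without iEC D, E or F. IGF2BP2 was at 0.47 with no filter, not called, and 0.44 to 0.59 with a sample left out (call lost without iEC C, D or F or iREC C, D or E). IGF2BP3 was at 0.44 with no filter and 0.45 with the replicate block, not called in either, and 0.41 to 0.53 (call lost without iEC C or D or iREC C or D). LIN28B changed sign (-0.071 to 0.22). HMGA1 (-2.77 to -2.26), IGF2BP1 (-0.25 to -0.056) and HMGA2 (0.18 to 0.37) kept their direction in all 14 alternatives. Since the 7 were chosen by these counts, none of this is a test of them.

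The fits with no filter and with DESeq2 take in genes of lower count. With either, calls were 5 in the let-7 processing list (L1TD1 and MSI1 added) and 1 among let-7 hosts. In the pluripotency list they were 4, with L1TD1 and DNMT3B added. DNMT3B had passed the filter of the main fit (adjusted p 0.0650 by edgeR) and was also called by limma-voom and with the replicate block. Other high mobility group genes had 2 calls, HMGN4 added, with library totals, no filter, DESeq2, limma-voom and the replicate block. With a sample left out, ranges were 0 to 1 for let-7 hosts, 0 to 1 for IGF2BP partners, 0 to 3 for methylation genes (3 without iREC F), 0 to 2 for other high mobility group genes (0 without iREC D) and 1 to 3 for pluripotency. In the IGF2BP client, let-7 target and HMGA-linked lists the counts stayed within 1.5-fold.

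Of 44 other named genes tested, 29 kept direction and side of the threshold in all 14 alternatives, 7 lost a call in at least 1, 2 gained one and 6, none of them called, changed sign. KIF21B was at -0.43 by limma-voom and -0.32 with the replicate block. With a sample left out, the sign turned for KIF21B (-0.61 to 0.40), SORL1 (-0.77 to 0.013), KCTD9 (-0.012 to 0.24), H2AFZ (-0.094 to 0.31), ST7 (-0.26 to 2.6e-05) and NUP205 (-0.27 to 0.039). ABCB1, ID2 and GOLGA6L9 lost their calls most often. Causes were not tested.

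Same-lettered samples correlated by 0.17, -0.079, 0.029 and 0.25 in their deviations from the group means (C, D, E, F), so the letters were not taken as pairs. Not every sample correlated best with its own letter. Depth limits NANOG, SOX2, MIRLET7BHG and other genes near 3 counts, whose levels rest on few counts.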
